A study of Homo sapiens with 12 samples.

Results

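Keratins are the intermediate filament proteins of epithelial cells, and keratin-associated proteins are the small cross-linkers of the hair shaft. The genes described here are the protein-coding genes whose symbol starts with KRT and a digit, or with KRTAP, found in either of a pair of gene tables from DU145, a human prostate cancer cell line. RefSeq lists 149 such genes, and 8 of them were found among the 2982 distinct genes and loci of both tables: KRT81, KRT86, KRT83, KRT16 and KRT4 in one, and KRTAP2-3, KRT10 and KRT8 in the other. None of the 8 was in both. RNA of 12 libraries in 4 groups of 3 was sequenced. Wild-type DU145 treated for 24 h with RSL3, a compound that blocks GPX4 and so lets lipid peroxides build up until cells die by ferroptosis, was compared with wild-type DU145 given DMSO. DU145 overexpressing the basic helix-loop-helix transcription factor ATOH8 (oeATOH8) was compared with DU145 carrying the control for overexpression (oeCTRL), and no promoter, vector or clone is given in the labels. Each table holds the genes that the authors called changed, so a keratin outside the tables could not be assessed and presence in a table already means that a difference was called.

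Keratin filaments are built from obligate pairs of a type I and a type II protein. Simple epithelia, including luminal prostate cells, use mainly KRT8 with KRT18, differentiating skin uses KRT1 with KRT10, and stressed or healing skin uses the KRT6 proteins with KRT16. The hair cortex uses its own hard keratins, among them KRT81, KRT83 and KRT86, embedded in keratin-associated proteins. Type II genes and KRT18 form one cluster on chromosome 12, the other type I genes and a part of the KRTAP genes form another on chromosome 17.

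RefSeq promoter windows (GRCh38.p14) were matched for 4 of the 8 genes, KRTAP2-3, KRT10, KRT8 and KRT4. The windows of the 3 genes in the ATOH8 table are shown because the overexpressed protein belongs to a class of factors that bind the E-box, CANNTG. Each line gives the 250 bases before the annotated start on the minus strand, written 5′ to 3′, with E-boxes in capitals. The KRT8 window precedes one of several annotated starts, 23.5 kb inside the span of the gene, and windows at its other starts are not shown. The genes and regions are KRTAP2-3 at chr17:41060115-41060364, KRT10 at chr17:40822615-40822864 and KRT8 at chr12:52926470-52926719.
KRTAP2-3: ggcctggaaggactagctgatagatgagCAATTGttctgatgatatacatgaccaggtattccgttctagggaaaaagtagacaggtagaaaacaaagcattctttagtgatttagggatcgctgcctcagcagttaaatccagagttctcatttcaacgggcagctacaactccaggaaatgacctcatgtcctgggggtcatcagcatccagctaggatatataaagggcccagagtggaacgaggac
KRT10: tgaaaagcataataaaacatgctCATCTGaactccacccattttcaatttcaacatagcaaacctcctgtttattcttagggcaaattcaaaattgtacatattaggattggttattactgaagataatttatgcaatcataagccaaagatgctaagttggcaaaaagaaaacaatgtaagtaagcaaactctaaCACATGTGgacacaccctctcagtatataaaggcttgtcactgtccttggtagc
KRT8: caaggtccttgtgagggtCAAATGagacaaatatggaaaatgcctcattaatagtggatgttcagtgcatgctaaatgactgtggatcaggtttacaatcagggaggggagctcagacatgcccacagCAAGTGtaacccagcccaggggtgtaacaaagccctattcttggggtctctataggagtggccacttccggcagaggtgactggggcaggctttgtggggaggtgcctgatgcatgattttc
The KRTAP2-3 window held 1 E-box, 222 to 217 bases before the start. KRT10 held 3, a pair of which overlap within CACATGTG, and KRT8 held 2. KRT4, which is in the RSL3 table, held 1. An E-box on either strand was found in 61.8% of all 35116 windows of this length and in 73.7% of the 118 windows of KRT and KRTAP genes. The TATA box letters TATAAA were found 28 to 23 bases before the start of KRTAP2-3 and 29 to 24 bases before that of KRT10. They stood in 71.2% of KRT and KRTAP windows against 10.7% of all windows, on either strand. The letters TGACNNNGC, the core of the antioxidant response element bound by NRF2, were in none of the 4 windows, and in 10.9% of all windows. These matches describe letters and not binding.

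In the RSL3 table, each value is a read count scaled by the size factor of its library. Whole reads could be recovered for 100% of values within a tolerance of 0.001, and listed genes held 2523743 to 3096832 reads per library. In the ATOH8 table they held 1508188 to 2226518 reads per library. These sums cover listed genes and are not library depths. Replicates 2 and 3 were nearly as alike as repeats of 1 sample in both RSL3 (chi-square per degree of freedom 1.80) and DMSO (1.64), against 59.1 to 101 for pairs with replicate 1, so each RSL3 keratin result is also given within replicates. ATOH8 reads were 76508, 72569 and 76043 in oeATOH8 libraries and 13, 10 and 4 in oeCTRL libraries. Of 7 prostate epithelial markers, EPCAM and CDH1 were in the RSL3 table, CDH1 and KRT8 were in the ATOH8 table, and each listed one was lower in RSL3 or oeATOH8 cells than in its control. KRT8 is itself one of the 8 genes described. Among all tested genes, 38.9% passed lower with RSL3 and 58.6% passed lower in oeATOH8. In bulk RNA, fewer cells with a transcript and less transcript per cell cannot be told apart.

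RSL3 against DMSO asked which genes move as cells are pushed towards ferroptosis. KRT81, KRT86 and KRT83, hard keratins that are neighbours on chromosome 12, and KRT16, a keratin of stressed skin, were higher with RSL3. KRT4, a keratin of moist stratified epithelia such as the oesophagus, was lower. The 5 genes are 3.36% of the annotated KRT and KRTAP genes, where 7.95% of all 20056 protein-coding genes are in this table. All 5 passed limma at an adjusted p under 0.05 over the listed genes and none had overlapping groups. Of all 1732 tested genes 82.0% passed, 43.1% higher and 38.9% lower. In 86.4% of listed genes the groups did not overlap, 48.5% with RSL3 higher and 37.8% with RSL3 lower. The calls therefore do not set the keratins apart from the rest of the table.

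KRT81 (chromosome 12, 52285913 to 52291534, minus strand, GRCh38) had normalised read counts of 1176, 995 and 968 in RSL3 replicates 1, 2 and 3, against 166, 286 and 246 in DMSO replicates 1, 2 and 3. Every RSL3 library was far above every DMSO library. The mean was 1046 ± 113 with RSL3 and 233 ± 61.3 with DMSO (SD, n = 3 each), a 4.49-fold difference. The log2 fold change of value + 1 was 2.19 (SE 0.24, limma adjusted p = 0.00764). Within replicate 1 the RSL3 over DMSO ratio was 7.08, and between the means of replicates 2 and 3 it was 3.69.

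KRT86 (52270507 to 52309163 in the file, plus strand, overlapping RefSeq KRT86 by 0.893 of the longer span) had 193, 106 and 150 with RSL3 and 45.1, 71.8 and 73.3 with DMSO. The groups were apart by less than for KRT81, with the lowest RSL3 value from replicate 2. Means were 149.6 ± 43.3 with RSL3 and 63.4 ± 15.9 with DMSO, a 2.36-fold difference (log2 1.22, SE 0.32, limma adjusted p = 0.0278). Replicate 1 gave a ratio of 4.27, and replicates 2 and 3 gave 1.77. The call was lost without RSL3 replicate 3 (limma adjusted p = 0.0561), DMSO replicate 2 (0.0848) or DMSO replicate 3 (0.0840). Of all 1732 tested genes, 310, 6 and 8 passed limma in those runs, so most of the table lost its calls as well.

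KRT83 (52314301 to 52321398, minus strand) was near the low end of detection, with 29, 15 and 14 reads in the RSL3 libraries and 6, 12 and 7 reads in the DMSO libraries. Its normalised counts were 42.0, 14.1 and 13.1 with RSL3 and 6.59, 9.16 and 6.11 with DMSO. RSL3 replicate 1 stood well above the other libraries. The means were 23.1 ± 16.4 and 7.29 ± 1.64, a 3.16-fold difference (log2 1.35, SE 0.51, limma adjusted p = 0.0454). Replicate 1 alone gave a ratio of 6.37, against 1.78 for the means of replicates 2 and 3. Leaving out any 1 of the 6 libraries ended the call (limma adjusted p from 0.0567 to 0.134). Of all 1732 tested genes, 975, 330 and 310 passed without RSL3 replicate 1, 2 or 3. The numbers passing without DMSO replicate 1, 2 or 3 were 1445, 6 and 8. Without RSL3 replicate 1 the log2 fold change of KRT83 was 0.83.

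**Figure D1:**
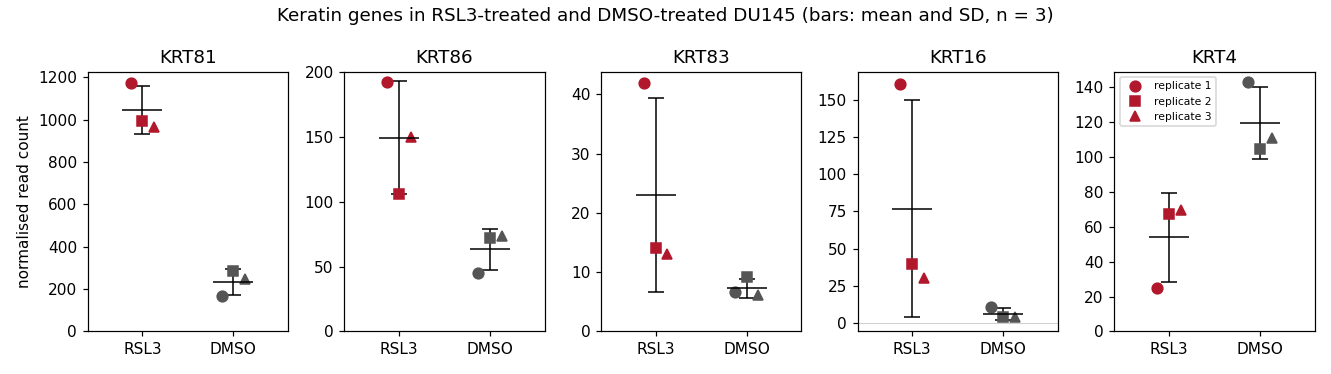
Normalised read counts (y axis, read counts divided by the size factor of the library) of 5 keratin genes in RSL3 and DMSO libraries. Each marker is 1 library, with its shape giving the replicate number, and bars give mean and SD over 3 libraries. KRT81 lay between 968 and 1176 with RSL3 against 166 to 286 with DMSO, and KRT4 was the gene with lower values in RSL3.

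The KRT81, KRT86 and KRT83 rows may share reads. KRT81 lies inside the span of KRT86 on the opposite strand, with 0 exonic bases overlapping in GENCODE 29. Of the 50-base windows in the 1929-base KRT81 transcript, 44.6% were also found in a transcript of another gene, 38.4% in KRT86 and 6.22% in KRT83. In KRT86 40.5% of windows were shared and in KRT83 12.8%. How the aligner and counter assigned such reads, and whether counting used the strand, is not given in the sources used here, so the division of reads among these genes is uncertain.

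KRT16 (chromosome 17, 41609778 to 41612767, minus strand) was low in DMSO libraries, and its RSL3 libraries were far apart. Its reads were 111, 42 and 32 in RSL3 libraries and 10, 5 and 5 in DMSO libraries. As normalised counts these were 161, 39.4 and 30.0 with RSL3 and 11.0, 3.82 and 4.36 with DMSO. Replicate 1 was the highest library in both groups. The mean was 76.7 ± 72.9 with RSL3 and 6.39 ± 3.99 with DMSO, a 12.0-fold difference (log2 3.12, SE 0.68, limma adjusted p = 0.0192). Within replicate 1 the ratio was 14.6, and within replicates 2 and 3 it was 8.49. Without RSL3 replicate 1 the log2 fold change was 2.39 (limma adjusted p = 0.0174). Without DMSO replicate 2 or DMSO replicate 3 the limma adjusted p was 0.0797 and 0.0769. In those runs 6 and 8 of all 1732 tested genes passed. Of the 50-base windows of its transcript, 22% were shared with other genes, among them the pseudogene KRT16P3 (13.0%) and KRT14 (11.3%). KRT6A, KRT6B and KRT6C, the type II partners of KRT16 in skin, were in neither table.

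KRT4 (chromosome 12, 52806549 to 52814116, minus strand) had 24.6, 67.5 and 69.4 with RSL3 and 143, 105 and 111 with DMSO. The lowest value was that of RSL3 replicate 1 and the highest that of DMSO replicate 1. Means were 53.9 ± 25.4 with RSL3 and 119 ± 20.5 with DMSO, and KRT4 was 2.22-fold lower with RSL3 (log2 -1.26, SE 0.42, limma adjusted p = 0.0395). It was 5.80-fold lower within replicate 1 and 1.57-fold lower within replicates 2 and 3. The call was lost without RSL3 replicate 2 or 3, or without any 1 DMSO library (limma adjusted p from 0.0524 to 0.115). Of all 1732 tested genes, 330 and 310 passed without RSL3 replicate 2 or 3. Without DMSO replicate 1, 2 or 3, the numbers passing were 1445, 6 and 8. None of its 50-base windows was found in another gene. KRT13, its usual type I partner, was in neither table.

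**Figure D2:**
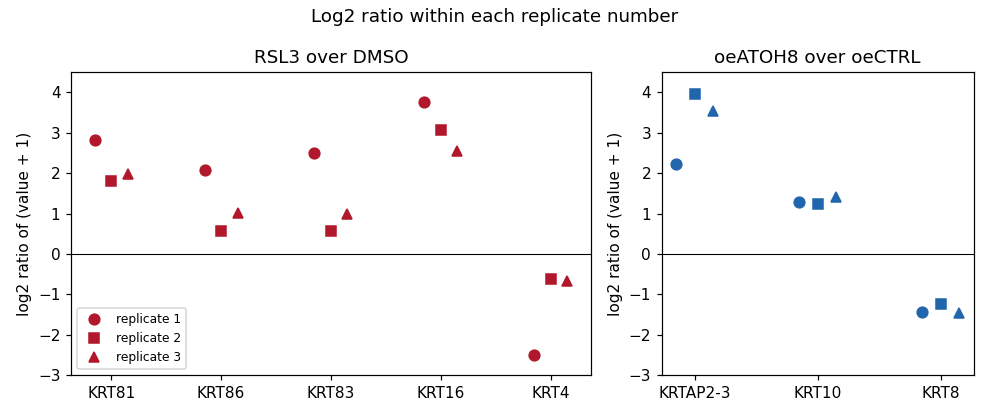
Log2 ratio of value + 1 within each replicate number (y axis) for RSL3 over DMSO (left) and oeATOH8 over oeCTRL (right), 1 marker per replicate number. All 5 RSL3 ratios were farthest from 0 in replicate 1, for KRT4 at -2.49 against -0.62 and -0.67, while KRTAP2-3 was nearest to 0 in replicate 1 at 2.23. In the ATOH8 table the numbers were not found to pair samples.

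All 5 ratios were thus farthest from 0 in replicate 1, as were those of 58% of the 1810 listed genes. Scaling also mattered. With TMM (edgeR's trimmed mean scaling) over listed genes, which moved the median of all genes by -0.29, KRT83 lost its call (log2 1.09, limma adjusted p = 0.0745), and KRT81, KRT16, KRT86 and KRT4 kept theirs at 1.91, 2.86, 0.93 and -1.54. Scaled to listed totals, which moved the median by -0.47, KRT86 (0.75, limma adjusted p = 0.125), KRT83 (0.91, 0.106) and KRT4 (-1.72, 0.0578) lost theirs. KRT81 (1.72) and KRT16 (2.69) kept theirs. Of all 1732 tested genes, 926 passed limma with TMM and 634 with listed totals, so losses were common in the whole table. When replicates 2 and 3 were averaged into 1 sample per group, 3 of the 1732 tested genes passed limma, and none of the 5 did (adjusted p from 0.0621 for KRT81 to 0.161 for KRT83). Counting all 59792 annotated genes as tests, limma passed 0 of the 1732 genes (1554 at an unadjusted p under 0.05), edgeR on recovered reads 0 and DESeq2 193, with KRT81 and KRT16 among them.

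Per kb of the longest coding transcript, KRT81 was the highest of the 5 in both groups, at 542 ± 58.6 normalised counts per kb with RSL3 and 121 ± 31.8 with DMSO. With RSL3 it was followed by KRT86 (67.5 ± 19.5), KRT16 (46.7 ± 44.3), KRT4 (20.9 ± 9.84) and KRT83 (12.3 ± 8.74), and the ranges of each neighbouring pair after KRT81 overlapped. With DMSO the order was KRT81, KRT4 (46.4 ± 7.97), KRT86 (28.6 ± 7.16), KRT16 (3.89 ± 2.43) and KRT83 (3.89 ± 0.875), and of neighbouring pairs the ranges of KRT16 and KRT83 overlapped. KRT4 stood above KRT86 with DMSO and below it with RSL3.

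**Figure D3:**
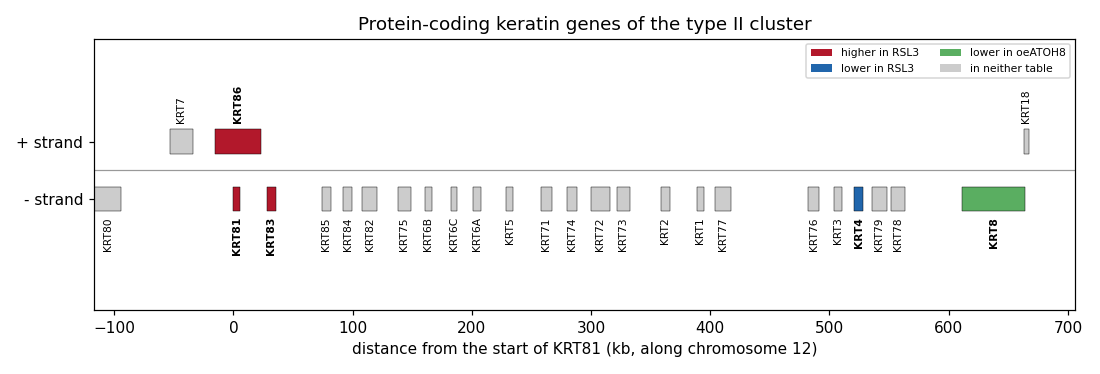
Positions of the 27 protein-coding keratin genes of the chromosome 12 cluster (x axis, kb from the start of KRT81; upper and lower rows, plus and minus strand). Filled colours mark the 5 genes in a table, grey the others. The 3 genes higher with RSL3 are neighbours, with KRT83 ending 35.5 kb from the start of KRT81, while KRT4 starts 520.6 kb and KRT8 611 kb from KRT81.

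Of 6 annotated hard keratins KRT81 to KRT86, 3 were in the RSL3 table, and KRT82, KRT84 and KRT85 were in neither. Of 11 genes from KRT31 to KRT40, the hard type I keratins, and of 94 KRTAP genes, 0 were in the RSL3 table. Within 1 Mb of KRT81, 5 listed genes of the RSL3 table were found, 3 higher (KRT86, KRT83 and the noncoding TNS2-AS1, 1.46-fold) and 2 lower (KRT4 and the glycosyltransferase GALNT6, 3.56-fold lower). Around KRT16 there were 6, of which 2 were higher and 4 lower. The lower ones included DHX58, a cytosolic RNA sensor, at 3.16-fold, and JUP. Around KRT4, itself lower, all 6 listed genes were higher: KRT81, KRT83, KRT86, TNS2-AS1, MYG1 (1.71-fold) and AAAS (1.77-fold).

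Genes whose profile over the 6 libraries lay nearest to that of each keratin were sought among 1376 named genes with a mean of at least 50. Likeness was the root mean square difference of log2 values relative to the DMSO mean. Among the nearest to KRT81 were IGF2BP1 (difference 0.245), FOXL2 (0.287), the aldo-keto reductase AKR1C2 (0.308) and KCNF1 (0.347). KRT16 had no close match, with P2RX6 at 0.469, HMOX1 at 0.688 and NUPR1 at 0.746 as the nearest, followed by GNAO1 and KCNF1. The difference is not scaled to the spread of a gene, and KRT16 had 10, 5 and 5 reads in DMSO libraries. KRT86 was nearest to PKP1 (0.162), a desmosomal plakophilin, then KCNH3, H2AC25 and asparagine synthetase ASNS with its overlapping readthrough locus. KRT83 was nearest to NXPH4 (0.13), then VGF, CYP1A1, PHGDH and ARC. KRT4 was nearest to complement factor CFB (0.116), then C6orf132, C1RL, TMEM163 and PHLPP1.

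Other genes of the filament system were read from lists, each of which held few listed genes. The median log2 fold change over the 1732 tested genes of the RSL3 table was 0.51. Of 22 desmosome and keratin linker genes, 4 were in the RSL3 table, 1 passing higher and 2 lower (list median -1.12). PKP1 rose 2.47-fold, with 309 ± 99.4 in RSL3 and 125 ± 14.6 in DMSO (limma adjusted p = 0.0192). The plakoglobin gene JUP was 1.55-fold lower, with 1913 ± 79.0 in RSL3 and 2973 ± 466 in DMSO (adjusted p = 0.0314). PKP2, a plakophilin, had 1.45, 23.5 and 10.3 in RSL3 and 35.2, 72.5 and 89.9 in DMSO (adjusted p = 0.0321 by limma), and the desmosomal cadherin DSC2 did not pass, with 53.0 ± 33.4 in RSL3 and 155 ± 87.1 in DMSO (adjusted p = 0.0647).

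Of 37 cornified envelope genes, 5 were in the RSL3 table, 2 passing higher and 3 lower (median -1.10). Involucrin, IVL, a scaffold of the envelope, rose 3.67-fold, with 50.7, 81.6 and 91.0 in RSL3 and 16.5, 19.9 and 24.4 in DMSO. Trichohyalin, TCHH, which binds keratin in the inner root sheath of the hair, rose 2.49-fold. SCEL, with means of 1.42 in RSL3 and 30.9 in DMSO, HRNR (2.83-fold lower) and the filaggrin gene FLG (2.03-fold lower) fell. Of 27 transcription factors of epidermis and hair, 3 were in the table (median -0.81). DLX3, a hair follicle homeobox factor, was higher, with 20.3, 34.7 and 24.4 in RSL3 against 1.10, 6.11 and 4.36 in DMSO, a range of few reads. ELF3 (2.17-fold) and SOX9 (1.83-fold) were lower. Of 18 other intermediate filament genes, 3 were in the table (median -0.75), the lens filament gene BFSP1 at 2.05-fold higher and the neurofilament genes NEFM (1.72-fold) and NEFL (2.19-fold) lower. The 11 genes of these 3 lists passed limma over listed genes at adjusted p from 0.0143 to 0.0463, with replicates 2 and 3 counted as separate samples. Sizes differed within replicates: PKP1 was 3.82-fold higher in replicate 1 and 1.92-fold higher in replicates 2 and 3, DLX3 18.4-fold and 5.64-fold higher, and ELF3 3.52-fold and 1.69-fold lower. All 15 genes of the 4 lists had the same direction in replicate 1 and in the means of replicates 2 and 3. They had been called changed from these same libraries, so this is no separate support. The share over all listed genes is not given here.

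Marker lists of other cell types were looked up beside these results. The skin keratinocyte and hair shaft list had 2 of 16 genes in the RSL3 table, KRT86 and FLG, in opposite directions, with a summed level of 234 to 265 in RSL3 libraries and 213 to 295 in DMSO libraries. Fibroblast, endothelial and erythroid markers had 0 in that table, and the immune list had CD68 alone, which did not pass (adjusted p = 0.0538 by limma). Its RSL3 values of 4290.3, 1535 and 1498 were led by replicate 1, and DMSO values ran from 787 to 1607. Its part in the keratin results was not tested.

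The second comparison addressed the response of DU145 to added ATOH8. KRTAP2-3, a keratin-associated protein of the hair shaft, and KRT10, a type I keratin of differentiating skin, rose in oeATOH8 cells. KRT8, the main type II keratin of simple epithelia, fell. The 3 genes are 2.01% of the annotated KRT and KRTAP genes, where 5.61% of all protein-coding genes are in this table. All 3 passed edgeR's quasi-likelihood test over listed genes, as did 100% of the 1424 listed genes (41.4% higher and 58.6% lower). In 99.6% of listed genes the groups did not overlap, 41.4% higher and 58.3% lower, as for these 3. With all 75204 annotated genes and assembled loci counted as tests, 82.0% passed, with the 3 among them.

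KRTAP2-3 (ENSG00000212724, chromosome 17, 41059240 to 41060114, minus strand, GENCODE 29 on GRCh38) had 196, 231 and 246 reads in oeATOH8 replicates 1, 2 and 3, against 41, 14 and 19 in oeCTRL replicates 1, 2 and 3. The lowest oeATOH8 library was several times above the highest oeCTRL library. Scaled counts, in which libraries of a group were aligned by median ratio and the groups by the gap between higher and lower listed genes, averaged 219.7 ± 27.0 in oeATOH8 and 24.3 ± 13.2 in oeCTRL (SD, n = 3 each), a 9.03-fold difference. The log2 fold change was 3.16 (SE 0.34, edgeR adjusted p = 3.90e-06, or 0.000206 with all annotated genes and loci counted). Leaving out oeCTRL replicate 1 gave a log2 value of 3.70 and leaving out oeCTRL replicate 2 gave 2.89.

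Reads of KRTAP2-3 cannot be told apart with certainty from those of its relatives. Of the 50-base windows of its 875-base transcript, 39.7% were shared, 39.5% with KRTAP2-4, 32.9% with KRTAP2-1 and 30.4% with KRTAP2-2. These 3 paralogs were not in the table, and of 94 KRTAP genes 1 was in it.

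KRT10 (ENSG00000186395, chromosome 17, 40818117 to 40822595, minus strand) had 1395, 1356 and 1555 reads in oeATOH8 libraries and 573, 566 and 556 in oeCTRL libraries. Replicates lay close together and the groups were far apart. Scaled counts averaged 1404 ± 78.7 in oeATOH8 and 565 ± 15.0 in oeCTRL, 2.48-fold higher (log2 1.31, SE 0.08, edgeR adjusted p = 2.84e-08, or 1.50e-06 with all annotated genes and loci counted). KRT10 shared 0.434% of its 50-base windows, with TMEM99 on the opposite strand. Its skin partner KRT1 was in neither table.

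KRT8 (ENSG00000170421, chromosome 12, 52897187 to 52949954, minus strand) had 5873, 6304 and 5962 reads in oeATOH8 libraries and 15797, 14747 and 15351 in oeCTRL libraries. Every oeATOH8 library was below every oeCTRL library. Scaled counts averaged 5924 ± 414 in oeATOH8 and 15288 ± 283 in oeCTRL, a 2.58-fold lower level (log2 -1.37, SE 0.06, edgeR adjusted p = 2.17e-09, or 1.15e-07 with all annotated genes and loci counted). Its filament partner KRT18 lies beside it on the opposite strand and was in neither table. GENCODE 29 places 525 exonic bases of KRT8 (7.63%) under exons of KRT18, and 3.73% of 50-base windows of KRT8 were shared with other genes.

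**Figure D4:**
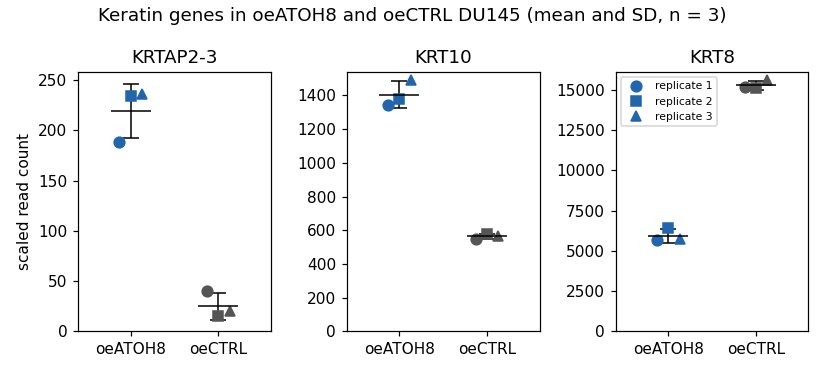
Scaled read counts (y axis) of KRTAP2-3, KRT10 and KRT8 in oeATOH8 and oeCTRL libraries, with 1 marker per library and bars for mean and SD over 3 libraries. KRTAP2-3 lay at 189 to 236 in oeATOH8 against 14.3 to 39.3 in oeCTRL, and KRT8 at 5649 to 6400.

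The scale between oeATOH8 and oeCTRL rests on an assumption, since all listed genes had been called changed. With libraries scaled by their totals, by TMM or by DESeq2 size factors over listed genes, the median of all listed genes moved by -0.46, 0.31 and 0.91 on the log2 scale. Under those scalings the log2 fold change of KRTAP2-3 was 2.70, 3.46 and 4.06, that of KRT10 was 0.86, 1.62 and 2.22, and that of KRT8 was -1.82, -1.06 and -0.46. Directions held under all 3 scalings. They were all but fixed, since listed genes lay about 1.00 or more from 0, beyond the largest shift of 0.91. Each of the 3 genes kept an adjusted p under 0.05 by edgeR, as did 1405, 1422 and 1007 of all 1424 listed genes.

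Per kb of the longest coding transcript, KRT8 stood highest, at 2431 ± 170 scaled counts per kb in oeATOH8 and 6273 ± 116 in oeCTRL. KRT10 was next, at 661 ± 37.0 in oeATOH8 and 266 ± 7.07 in oeCTRL, and KRTAP2-3 lowest, at 251 ± 30.9 in oeATOH8 and 27.8 ± 15.1 in oeCTRL. No ranges of neighbouring genes overlapped in either group. The order of the 3 was therefore the same with and without ATOH8, although KRT8 was 2.58-fold lower.

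By the same measure of likeness, over 1043 named genes, KRT8 was nearest to NR4A1 (difference 0.0540), an orphan nuclear receptor gene 838 kb away, then SULT1A3, CD24, H2BC21 and TENT5A. KRT10 was nearest to WDR18 (0.0284), MAP2K3 (0.0432), EPG5, ANGPTL4 and NT5C. KRTAP2-3 was farther from any gene, with the metallothionein MT1X at 0.492, VGF at 0.496, PTGER1 at 0.535, IL24 at 0.558 and TNFSF15 at 0.630. It had 41, 14 and 19 reads in oeCTRL libraries, and the difference is not scaled to such spread. Within 1 Mb of KRTAP2-3, the ATOH8 table held KRT10, 237 kb away, and TNS4, a focal adhesion gene that was 4.72-fold lower.

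Few other filament genes were in the ATOH8 table, where the median log2 fold change over all genes was -1.10. Of 22 linker genes 2 were listed, both lower. PKP1 fell 2.49-fold, with 63.5 ± 13.4 in oeATOH8 and 158 ± 8.77 in oeCTRL, and EPPK1, a plakin family gene, fell 2.67-fold. Of 37 cornified envelope genes 3 were listed (median -1.11): the cystatin CST6 rose 3.76-fold, while SBSN fell 7.25-fold and the transglutaminase TGM1 fell 2.15-fold. Of 27 transcription factors 2 were listed, in opposite directions, so their median of -0.28 describes neither. KLF4, which takes part in skin barrier formation, was 2.08-fold higher and ELF3 was 3.09-fold lower. Of 18 other intermediate filament genes, nestin, NES, fell 2.06-fold. All passed edgeR over listed genes, as every listed gene did.

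Markers of other cell types were also present in this table. Of 18 erythroid genes, HBB, HBA1 and HBA2 were listed and 15 were not. Their summed scaled count was 3189 to 54505 in oeATOH8 libraries and 4.07 to 12.5 in oeCTRL libraries, with HBB at 0 reads in the 3 oeCTRL libraries. The sum was highest in oeATOH8 replicate 1. Scaled counts of KRTAP2-3, KRT10 and KRT8 were each lowest in that library among oeATOH8 libraries (for KRT8 5649, against 6400 and 5721). HBB was at 23270, 1432 and 5367 in oeATOH8 replicates 1, 2 and 3. Over the same libraries KRT10 was at 1342, 1377 and 1492, and KRTAP2-3 at 189, 235 and 236, both highest in replicate 3. The share of all listed genes lowest in replicate 1 is not given here. Of 7 fibroblast genes, COL1A2 and COL3A1 were listed, with a summed scaled count of 129 to 194 in oeATOH8 and 0 to 10.2 in oeCTRL. Of 16 skin keratinocyte and hair shaft genes, KRT10 was the one listed, and immune and endothelial markers had 0. The part of erythroid and fibroblast transcripts in the keratin results was not tested.

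The plot of fold changes by setting gathers the alternatives in filters, scaling, tools and left-out libraries. The RSL3 genes KRT83 and KRT4 had the most settings at an adjusted p of 0.05 or more, and the 3 ATOH8 genes had none. Over all tested genes, from 0 to 1727 passed in the RSL3 settings and from 1007 to 1424 of 1424 in the ATOH8 settings. The contrast between the tables is therefore not particular to the keratins.

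**Figure D5:**
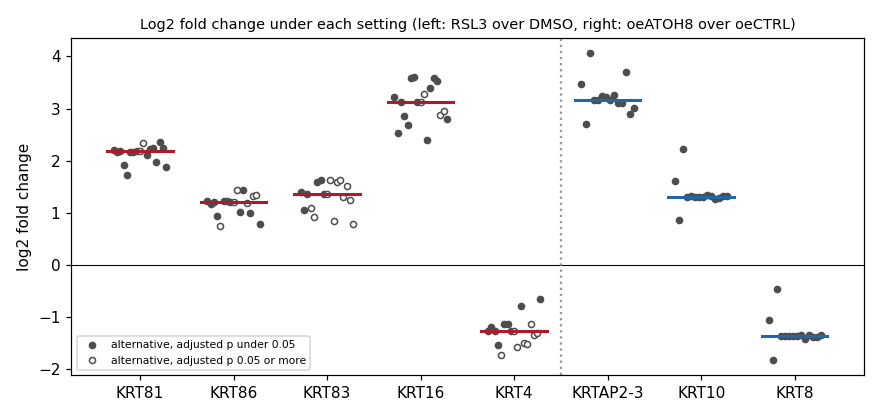
Log2 fold change (y axis) of each of the 8 genes under the reported setting (line) and every alternative setting (points, filled where the adjusted p was under 0.05). No gene changed direction, though all had been called changed from these same libraries. KRT81 ran from 1.72 to 2.36, KRT83 from 0.78 to 1.64 and KRT8 from -1.82 to -0.46.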

How the data were processed

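RNA of 12 DU145 libraries was measured by sequencing. Per the submitters' processing notes, fastp, HISAT2, StringTie and DESeq2 were used, without versions or roles, on hg38 (GRCh38). The signal of the RSL3 table is, as its values show, reads that the authors divided by a size factor. Raw counts were deposited for the ATOH8 comparison, with 1152 Ensembl identifiers and 272 assembled loci. The NC columns were taken as oeCTRL, the OE columns as oeATOH8. Both hold genes the authors called. The labels do not say whether replicates were separate cultures, so p-values measure the spread between these samples, which may be technical.

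RSL3 rows were named by RefSeq or GENCODE 29 spans (overlap at least 0.5; 1065 had the same span, 27 stayed unnamed), and 1146 of the Ensembl identifiers could be named. RSL3 values were tested on a log2(value + 1) scale with limma 3.58.1 and a variance trend, so fold changes of low genes are understated. The filterByExpr step (minimum count 10, total 15) removed 78 genes first. ATOH8 counts were tested with edgeR (4.0.16, quasi-likelihood). Libraries were scaled within groups by median ratio, and groups so that the gap in listed log2 ratios (-0.97 to 1.03) was centred on 0. DESeq2 (1.42.0) was an alternative, under R 4.3.3. All tests are two-sided, and p-values were adjusted by Benjamini-Hochberg over listed genes (threshold 0.05). The standard error given for edgeR is |log2 fold change| over the root of F. Plain folds are ratios of group means. Scripts were tested on simulated data. Neighbours were taken within 1 Mb, like genes as the 5 nearest (1 is not reported here), and list genes by smallest adjusted p. The genes and lists were chosen with earlier results of these data known.

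RSL3 and DMSO samples of the same number deviated together from their group means, with correlations of 0.61, 0.47 and 0.44, each over the 0.1 set for pairing. Replicates 2 and 3 were not told apart by number: DMSO 2 with RSL3 3 gave 0.47 and DMSO 3 with RSL3 2 gave 0.50, so what is shared is replicate 1 against the others.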

Additional observations from a re-analysis of the deposited data

How the results depend on the processing

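No gene of the 8 changed direction under any alternative run. All had been called changed from these same libraries, so this is not a separate test of direction. KRT81 lost its call in 2 of 17 alternatives, KRT16 in 4, KRT86 in 6, KRT4 in 8 and KRT83 in 11. KRTAP2-3, KRT10 and KRT8 kept theirs in all 14. Over all tested genes, from 0 to 1727 passed in the RSL3 alternatives and from 1007 to 1424 of 1424 in the ATOH8 ones. Leaving out replicate 1 of both groups, an alternative chosen after seeing the data, moved KRT83 to 0.78 (adjusted p = 0.0882), KRT86 to 0.79 and KRT4 to -0.65 on the log2 scale.

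Of the 1732 RSL3 genes tested, 1421 passed limma, 52.6% of them higher. The count was 926 with TMM scaling (30.0% higher), 634 with scaling to listed totals (24.3% higher), 1561 by edgeR and 1727 by DESeq2 on recovered reads, 3 with replicates 2 and 3 averaged and 0 when the number of tests was that of all annotated genes (1554 at an unadjusted p under 0.05). TMM and listed totals moved the median log2 fold change of all genes by -0.29 and -0.47. Leaving out libraries gave 6 (without DMSO replicate 2) to 1713 genes, with 8 without DMSO replicate 3, 330 without RSL3 replicate 2 and 310 without RSL3 replicate 3. The cause was not tested. The limma values printed for each keratin come from a fit without a block. With the replicate number as a block, 1720 passed and the calls of the 5 keratins were unchanged. Their limma adjusted p then ran from 0.00269 for KRT81 and KRT16 to 0.0348 for KRT83, with replicates 2 and 3 still counted as separate samples. Of the 1424 ATOH8 genes, 1417 to 1423 passed edgeR with a library left out, 1424 with the replicate block, where same-numbered samples correlated at 0.057, 0.048 and 0.088 and so share a number alone, and 1007 with DESeq2 size factors (58.5% higher, against 41.4%). Depth limits KRT83 and KRT16 in DMSO, at 5 to 12 reads per library.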
